A study of Mus musculus with 576 samples.

Results

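The expression of 10 genes of the NF-κB pathway was followed in single haematopoietic stem cells of mouse bone marrow. They are the 5 genes of the NF-κB/Rel transcription factor subunits (Nfkb1, Nfkb2, Rel, Rela and Relb) and 5 genes of proteins that restrain or modulate those subunits (Nfkbia, Nfkbie, Nfkbiz, Tnfaip3 and Bcl3). They were chosen by name, and each was found once by its Ensembl ID among the 46078 genes of the deposited tables. All the cells carried the surface phenotype CD150+CD48-cKit+Sca1+, which enriches for long-term stem cells, and had been sorted singly from femur and tibia marrow. The groups combined 2 treatments, control (Ctrl in the labels) and LPS, with 3 classes of a p27 marker, p27_high, p27_low and p27_negative. LPS, lipopolysaccharide, is a component of the outer membrane of Gram-negative bacteria that animal cells sense as a sign of infection. p27 is an inhibitor of the cell cycle, and the series title counts it among markers of G0, in which cells rest. Each of the 6 groups held 96 cells. After cells with fewer than 50000 gene reads were left out, 547 of 576 were kept. Sets of 3 values follow the order p27 high, p27 low, p27 negative throughout, and the kept cells were 84, 93 and 95 for control and 93, 90 and 92 for LPS. The genotype, age and number of the mice, and the dose, route and time of LPS, are not stated in the labels. Each group of cells therefore stands for 1 sample, without replicates, and differences are described and not tested. Control and LPS cells were also deposited as separate tables, so that treatment and anything else that differed between those sets of libraries cannot be told apart.

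NF-κB dimers are held in the cytoplasm of resting cells by inhibitors of the IκB family. Signals from receptors such as the Toll-like receptor for LPS activate IκB kinase, the inhibitor is degraded and the dimer enters the nucleus. Among the genes that nuclear dimers switch on are genes of the pathway itself, both subunits and inhibitors, which closes feedback loops. In haematopoietic stem cells the pathway is known for its part in the response to infection and for a role in stem cell maintenance.

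Depth differed between classes and treatments: the median kept cell held between 224003 and 439918 gene reads, more under LPS than in control in each class. The median share of spike-in reads was 5.81, 5.23 and 4.42% in the control and 3.86, 3.96 and 2.12% in the LPS classes, and the part of these shifts in the results was not tested. The 12 stem cell markers examined were all read in every group, and their summed level was 2635, 2363 and 1513 CPM (reads of a gene scaled to 1000000 gene reads) in the control classes and 2891, 2612 and 1584 CPM in the LPS classes. Ly6a, the gene of the gating marker Sca1, was at 331, 122 and 49.7 CPM in the control classes and 1220.3, 1090.4 and 455 CPM in the LPS classes. The sums hide that most of the 12 were lower under LPS: 10, 9 and 7 had a negative log2 fold. Their median log2 fold of LPS against control was -0.34, -0.73 and -0.25. Over all genes with a mean of at least 5 CPM the median was also negative, at -0.10, -0.17 and -0.13. The share of all those genes with a negative fold was not counted. At least 2-fold lower were 1, 4 and 0 of the 12 markers, beside 12%, 16.6% and 10.2% of all those genes. In each class 1 marker was 2-fold higher, beside 7.63%, 7.89% and 6.22% of all those genes. The summed levels of monocyte, neutrophil and B cell markers were lower under LPS than in control in every class. The 12 monocyte and macrophage markers summed to 866, 836 and 640.1 CPM in the control and 555, 486 and 362 CPM in the LPS classes, led by Lyz2, with between 0 and 4 of the 12 at 0 in a group. The ranges over the 6 groups were 112 to 307 CPM for 12 neutrophil markers, led by Prtn3, 31.3 to 83.6 CPM for 8 B cell markers, led by Cd79b, and 58.1 to 175 CPM for 9 T and NK cell markers, led by Nkg7. Up to 6 of the neutrophil, 5 of the B cell and 5 of the T and NK cell markers were at 0 in a group. The 9 erythroid markers summed to 56.6 to 489 CPM, the top in control p27 negative cells, where 1 cell held 81.6% of the reads of the leading gene Car1.

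The control regions of these genes are well known for carrying binding sites of NF-κB itself, and are shown here because the members stood higher under LPS together. RefSeq promoter windows on build GRCm38.p6, which run from 250 bases before to 50 bases after an annotated start, were held here for Nfkb2, Rel, Rela, Nfkbia, Nfkbie, Tnfaip3 and Bcl3, 7 of the 10 members with 10 windows in all. Both strands were searched for the consensus κB site, a degenerate motif of 10 bases. It matched in 8 of the 10 windows and in 6 of the 7 genes, against 4.51% of the 32851 windows of all genes and 6.12% of the tested genes that had a window. This contrast is no test, since the members were chosen by name and such sites were known in them. The only match in the window of the last Nfkb2 start also lies in the window before it, so those windows are not separate. Among tested genes that were at least 2-fold higher under LPS in all 3 p27 classes, 34 of 200 with a window had a match, or 17%, and among those at least 2-fold lower 10 of 141, or 7.09%. The higher set includes the members Nfkb2, Nfkbia, Nfkbie, Tnfaip3 and Bcl3, all with a match, so it is not separate from the count of the members. Sequences are given 5′ to 3′ on the strand of the gene, in lower case with each match in capitals, and hold only bases before the RefSeq start that no GENCODE exon of the gene covers. Matches that overlapped, on either strand, are merged in the capitals.
Nfkbia: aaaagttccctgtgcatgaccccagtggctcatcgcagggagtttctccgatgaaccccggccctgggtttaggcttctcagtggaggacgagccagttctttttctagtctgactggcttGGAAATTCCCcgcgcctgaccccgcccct
Nfkbie: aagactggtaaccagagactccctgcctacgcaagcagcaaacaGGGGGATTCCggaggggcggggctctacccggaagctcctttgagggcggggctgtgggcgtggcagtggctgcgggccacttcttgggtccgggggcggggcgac
Tnfaip3: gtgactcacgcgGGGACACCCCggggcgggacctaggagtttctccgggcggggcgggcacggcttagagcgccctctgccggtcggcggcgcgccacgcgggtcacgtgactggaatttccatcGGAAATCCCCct
Rel: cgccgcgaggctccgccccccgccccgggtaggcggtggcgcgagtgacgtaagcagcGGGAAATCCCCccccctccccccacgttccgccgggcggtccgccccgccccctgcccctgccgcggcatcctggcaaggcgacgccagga
Rela: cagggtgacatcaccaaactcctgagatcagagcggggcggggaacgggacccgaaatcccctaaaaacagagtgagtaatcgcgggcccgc
The Nfkbia stretch (chr12:55492648-55492797, minus strand, 150 bases) holds its match 29 to 20 bases before the start. Nfkbie (chr17:45555550-45555699, plus strand) has its match 106 to 97 bases before the start. The stretch before the first of 2 starts of Tnfaip3 (chr10:19015411-19015547, minus strand), which lies between 2 annotated exons of the gene, holds 2 matches, 125 and 12 bases before the start at their first base. In Rel (chr11:23770971-23771119, minus strand) 2 overlapping matches begin 92 and 91 bases before the start. Rela (chr19:5637391-5637482, plus strand) has no match in its window, and its stretch is shown as the contrast. For windows whose matches lie in annotated exons, 30 bases around the match are shown instead.
Nfkb2 first site: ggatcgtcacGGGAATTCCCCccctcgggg
Nfkb2 second site: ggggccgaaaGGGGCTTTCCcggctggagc
Bcl3: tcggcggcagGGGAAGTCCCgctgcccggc
The matches of the Nfkb2 sites (chr19:46304688-46304717 and chr19:46304716-46304745, plus strand) precede the first of its 3 annotated starts. The windows of its later starts hold further matches that are not printed here, at chr19:46305459-46305468 and chr19:46305705-46305714. The Bcl3 site (chr7:19822734-19822763, minus strand) lies just after the start, its match at bases 3 to 12 of the transcript. A match describes the letters only, and its absence says nothing of whether a factor binds.

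In every p27 class the NF-κB genes stood higher in LPS cells than in control cells. Relb and Bcl3 differed the most in p27 negative cells and Nfkbia held the highest level per length in all groups. The smallest fold was that of Rela, the gene of a transactivating subunit, in p27 high and negative cells and that of Rel in p27 low cells. On the scale log2(CPM + 1), 8 of the 10 members were at least 2-fold higher under LPS in p27 high cells, 7 in p27 low cells and 9 in p27 negative cells, and none was 2-fold lower. The background, over the 11080 genes with a mean of at least 5 CPM, was 7.63%, 7.89% and 6.22% of genes 2-fold higher and 12%, 16.6% and 10.2% 2-fold lower. The members' median log2 fold was 2.01, 2.01 and 2.79 in the 3 classes, beside -0.10, -0.17 and -0.13 over all genes tested. All 10 members had a positive fold in each class, and all 10 passed the filter on the mean level. The members below 2-fold were Nfkb1 and Rela in p27 high cells, Nfkb1, Rel and Rela in p27 low cells, and Rela in p27 negative cells.

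**Figure D1:**
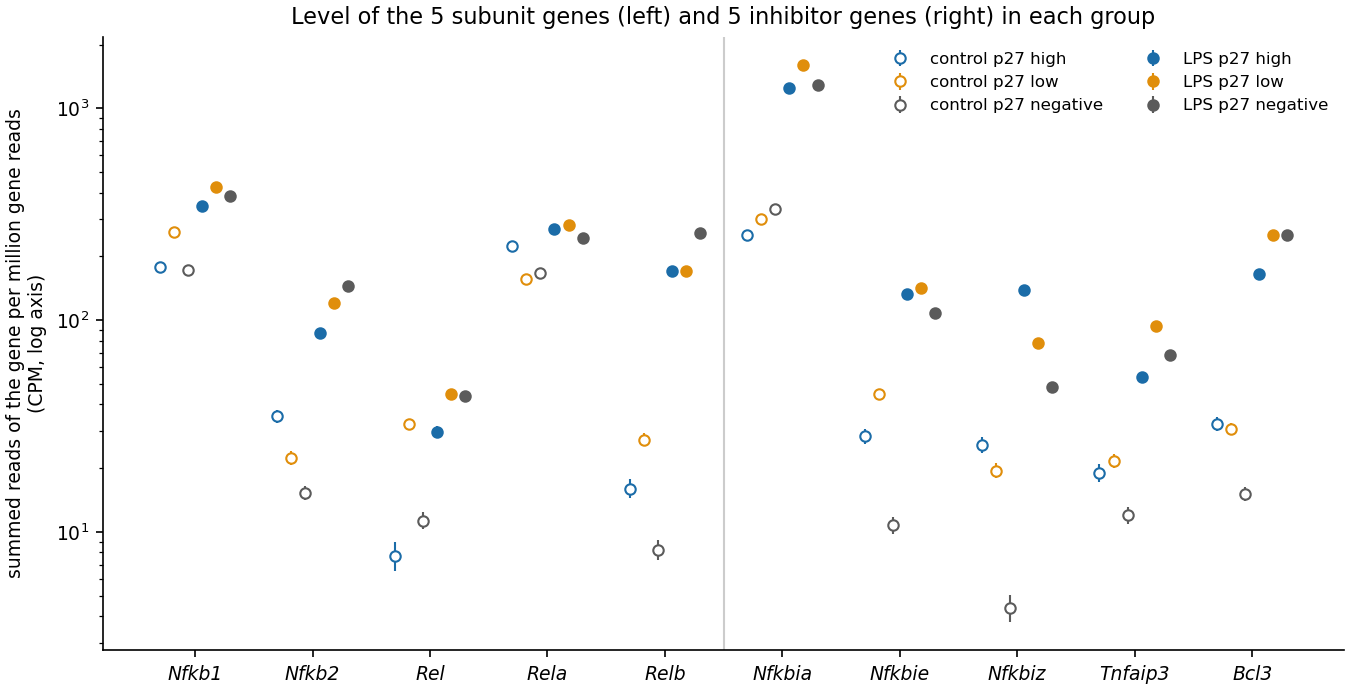
Level of each gene as CPM on a log axis, with open points for control and filled points for LPS groups, coloured by p27 class; bars are exact 95% Poisson intervals of the summed reads and are often smaller than the point. Every filled point lies above the open point of its own class, and Nfkbia is above 1000 CPM only in the LPS groups.

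Levels below are summed reads of the kept cells scaled to 1000000 summed gene reads of the group, folds are ratios of these CPM values, and their 95% intervals count only the sampling of reads. The libraries carried no molecular tags, so that reads are not molecules, and the spread over mice is not measured. Cells are not replicates of a treatment, and the values of cells are given as a description. A sum over a group cannot tell more expressing cells from more RNA per cell, which is why the cells are described as well.

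Among the subunit genes, Relb (chr7:19606217-19629438, minus strand) encodes the partner of p52 in the non-canonical branch of the pathway. It was at 16, 27.2 and 8.22 CPM in the control classes and at 169.9, 170.0 and 257 CPM in the LPS classes. The ratio was 10.6-fold in p27 high cells (counting interval 9.51 to 11.8), 6.24-fold in p27 low cells (5.80 to 6.73) and 31.2-fold in p27 negative cells (28 to 34.9). The median control cell had no read in any class, and the highest control cells reached 335, 607 and 326 CPM. Among LPS cells the median was 4.91, 20.2 and 13.6 CPM and the highest 1318, 1088 and 1452 CPM. The ranges overlapped, since 29, 16 and 20 LPS cells had no read, but 14, 7 and 25 LPS cells stood above every control cell of their class. A single cell carried 72.5% of the Relb reads of control p27 negative cells and 50.5% of those of control p27 low cells. Without the top cell of each group the log2 fold in p27 negative cells was 6.07 instead of 4.80.

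Nfkb2 (chr19:46304320-46312385, plus strand), the gene of p100 and its product p52, was at 35.1, 22.3 and 15.2 CPM in the control classes and 86.6, 121 and 144 CPM in the LPS classes. The ratio was 2.46-fold in p27 high cells (counting interval 2.27 to 2.67), 5.41-fold in p27 low cells (4.98 to 5.88) and 9.47-fold in p27 negative cells (8.73 to 10.3). The median control cell had no read, while the median LPS cell had 5.03, 11.9 and 50.9 CPM, the highest of the 3 in p27 negative cells. Control cells ranged up to 866, 672 and 536 CPM, and 0, 5 and 6 LPS cells exceeded that. The control levels fell in the order high, low, negative and the LPS levels in the reverse order. With each cell weighted equally, the log2 fold in p27 high cells was 0.71, below 2-fold, instead of 1.28, and in cells with at least 200000 reads it was 2.18. Exons of the opposite-strand genes Psd and AC114539.1 overlap Nfkb2, and because the strand setting of the counting is not given, a part of either gene's reads may be the other's. Psd itself was at 0.92 to 9.79 CPM over the 6 groups.

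Nfkb1 (chr3:135584655-135691547, minus strand) encodes p105 and p50, the DNA-binding partner of Rela in the classical dimer. Its level was 179, 260.5 and 172 CPM in the control classes and 347, 425 and 388 CPM in the LPS classes. The ratio was 1.94-fold in p27 high cells (counting interval 1.87 to 2.01), 1.63-fold in p27 low cells (1.58 to 1.68) and 2.25-fold in p27 negative cells (2.19 to 2.31). This gene was already read in most control cells, with medians of 14.8, 115 and 150.2 CPM, and the LPS medians were 238, 328 and 272 CPM. The highest control cells were at 1056, 1703 and 1129.5 CPM, and 3, 3 and 9 LPS cells were above them. The p27 high value lay at the edge of the threshold, at a log2 fold of 0.95, and it passed in 2 of 9 alternative settings, at 1.08 with TMM scaling and 1.06 with cells weighted equally.

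Rel (chr11:23736847-23770970, minus strand), the gene of c-Rel, a subunit best known in lymphocytes, was the lowest member per length in every LPS group. It was at 7.69, 32.2 and 11.3 CPM across the control classes, against 29.8, 44.8 and 43.8 CPM after LPS. The ratio was 3.87-fold in p27 high cells (counting interval 3.29 to 4.59), 1.39-fold in p27 low cells (1.28 to 1.52) and 3.87-fold in p27 negative cells (3.50 to 4.29). Its median cell had no read in all 6 groups, and 67, 70 and 72 control and 55, 51 and 48 LPS cells were at 0. The highest cell was at 377, 547 and 305 CPM in the controls, against 419, 920.0 and 977 CPM in LPS groups, so that only 1, 2 and 2 LPS cells lay above the control range. One cell carried 48.5% of the Rel reads of control p27 high cells and 51.3% of those of control p27 negative cells. Leaving out the top cells gave log2 folds of 2.55, 0.58 and 2.31, beside 1.83, 0.47 and 1.86 with them. Equal weighting of cells gave 1.03 in p27 high cells, at the edge of the threshold.

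Rela (chr19:5637483-5648130, plus strand), the gene of p65, was at 223, 157 and 168 CPM in the control classes and 269, 282 and 245 CPM in the LPS classes. The ratio was 1.21-fold in p27 high cells (counting interval 1.17 to 1.25), 1.79-fold in p27 low cells (1.73 to 1.86) and 1.46-fold in p27 negative cells (1.42 to 1.51). No class passed 2-fold in any of the 9 alternative settings. Its median cell was at 16.4, 58.1 and 134 CPM in the controls, against 136, 233 and 191 CPM in LPS groups, and the highest cells at 866, 1023 and 612 CPM and 1198, 1844 and 1827 CPM. Its fold exceeded that of 72.5%, 90.2% and 86.6% of all tested genes in the 3 classes, against 99%, 98.1% and 99.7% for Relb.

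**Figure D2:**
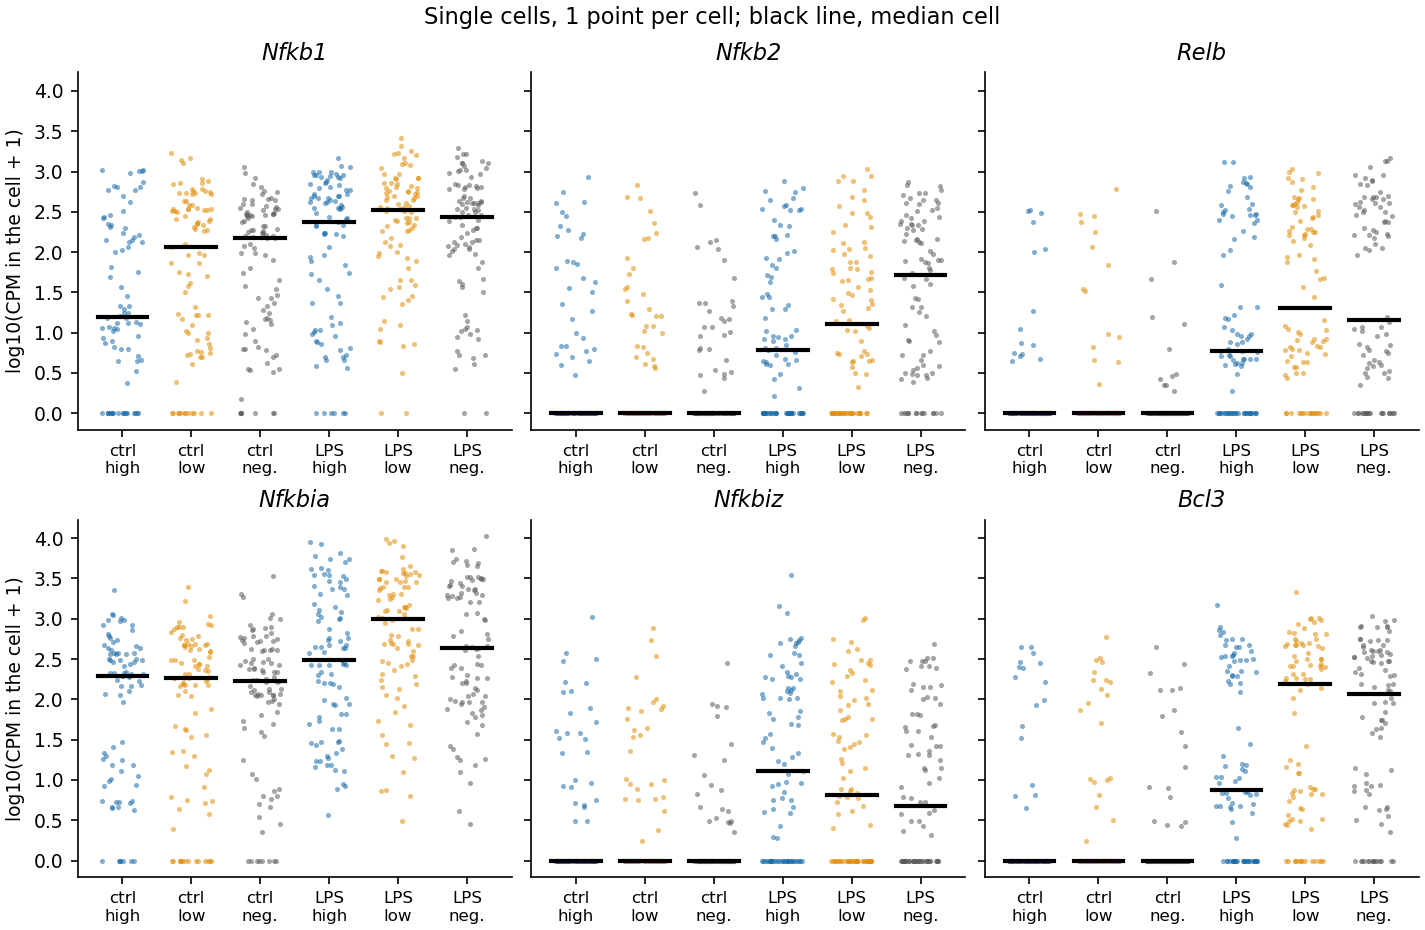
Values of 6 members in every kept cell as log10(CPM + 1), 1 point per cell, in the 3 control (ctrl) and 3 LPS groups; black lines are medians and points at 0 are cells with no read. For Relb, Nfkb2, Nfkbiz and Bcl3 the control medians lie at 0 and the LPS medians above it, whereas for Nfkb1 and Nfkbia all 6 medians lie above 0.

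Among the inhibitor genes, Nfkbia (chr12:55489410-55492647, minus strand) encodes IκBα, the inhibitor that is degraded and resynthesised in the classical response. It was at 252, 299 and 334 CPM in the control classes and at 1249.7, 1596 and 1292 CPM in the LPS classes. The ratio was 4.96-fold in p27 high cells (counting interval 4.82 to 5.10), 5.33-fold in p27 low cells (5.21 to 5.45) and 3.87-fold in p27 negative cells (3.80 to 3.94). Every one of the 275 LPS cells had at least 1 read, whereas 7, 14 and 8 control cells had none. The spread among LPS cells was wide: the lowest were at 2.71, 2.05 and 1.82 CPM, the medians at 305, 989.8 and 434 CPM and the highest at 8926, 9728 and 10725 CPM. Control medians were 195, 181 and 167 CPM and control maxima 2303, 2482 and 3433 CPM. The groups therefore overlapped, with 60.2, 77.8 and 64.1% of LPS cells above the control median of their class and 21, 24 and 9 cells above the control maximum. In p27 high cells the summed level was 4.96-fold that of control, while the median cell had 195 CPM in the controls, against 305 CPM under LPS.

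Nfkbie (chr17:45555703-45563169, plus strand), the gene of IκBε, was at 28.3, 44.9 and 10.7 CPM across the control classes, against 133, 142 and 108 CPM after LPS. The ratio was 4.69-fold in p27 high cells (counting interval 4.31 to 5.11), 3.17-fold in p27 low cells (2.98 to 3.37) and 10-fold in p27 negative cells (9.08 to 11). No read was found in 56, 64 and 74 control and 44, 42 and 31 LPS cells, and the LPS medians were 2.69, 2.08 and 4.90 CPM, close to the worth of a read or a few reads. The highest cells were at 398, 686 and 625 CPM in the controls, against 1527, 1695 and 1333 CPM in LPS groups. The log2 fold in p27 negative cells was 2.19 with cells weighted equally, instead of 3.21.

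Bcl3 (chr7:19808462-19822770, minus strand) encodes an atypical, mostly nuclear IκB protein that binds p50 and p52 dimers. Its level was 32.2, 30.6 and 15.1 CPM across the control classes, against 166, 253 and 253 CPM after LPS. The ratio was 5.15-fold in p27 high cells (counting interval 4.76 to 5.57), 8.27-fold in p27 low cells (7.73 to 8.87) and 16.7-fold in p27 negative cells (15.5 to 18.2). From a control median of 0 in each class the median cell stood at 6.42, 155 and 114 CPM under LPS. The highest control cells were at 444, 595 and 439.7 CPM, and 10, 12 and 17 LPS cells exceeded them, though 29, 14 and 15 LPS cells had no read. The annotated opposite-strand gene that overlaps a Bcl3 exon had at most 0.108 CPM in any group.

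Nfkbiz (chr16:55811375-55838899, minus strand), the gene of IκBζ, another nuclear IκB that acts as a cofactor at inflammatory genes, was at 25.7, 19.5 and 4.35 CPM across the control classes, against 139, 77.9 and 48.6 CPM after LPS. The ratio was 5.43-fold in p27 high cells (counting interval 4.97 to 5.94), 4.0-fold in p27 low cells (3.65 to 4.38) and 11.2-fold in p27 negative cells (9.59 to 13.1). Its control medians were 0 and its LPS medians 12, 5.57 and 3.76 CPM. The highest cells reached 1044, 757 and 279 CPM in the controls, against 3480.4, 1008 and 486 CPM in LPS groups. Its level was highest in p27 high and lowest in p27 negative cells in both treatments, and the intervals of the 3 levels did not overlap within either. In cells with at least 200000 reads, however, the control difference between p27 high and p27 low turned, from a log2 fold of 0.38 to -0.05.

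Tnfaip3 (chr10:19000910-19015657, minus strand) encodes A20, a ubiquitin-editing enzyme that shuts off signalling above IκB kinase. It was at 18.9, 21.6 and 12 CPM across the control classes, against 53.9, 94.1 and 68.5 CPM after LPS. The ratio was 2.85-fold in p27 high cells (counting interval 2.56 to 3.18), 4.36-fold in p27 low cells (4.0 to 4.75) and 5.72-fold in p27 negative cells (5.21 to 6.30). Control medians were 0, and LPS medians 0, 3.05 and 2.07 CPM, with 54, 41 and 38 LPS cells at 0. The highest cells were at 623, 719 and 241 CPM in the controls, against 717, 1081 and 1635 CPM in LPS groups. A single cell held 50.4% of the Tnfaip3 reads of control p27 high cells, and a single cell 30.3% of those of LPS p27 negative cells. Without the top cells the log2 folds were 1.79, 2.26 and 2.36, beside 1.46, 2.07 and 2.42 with them.

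**Figure D3:**
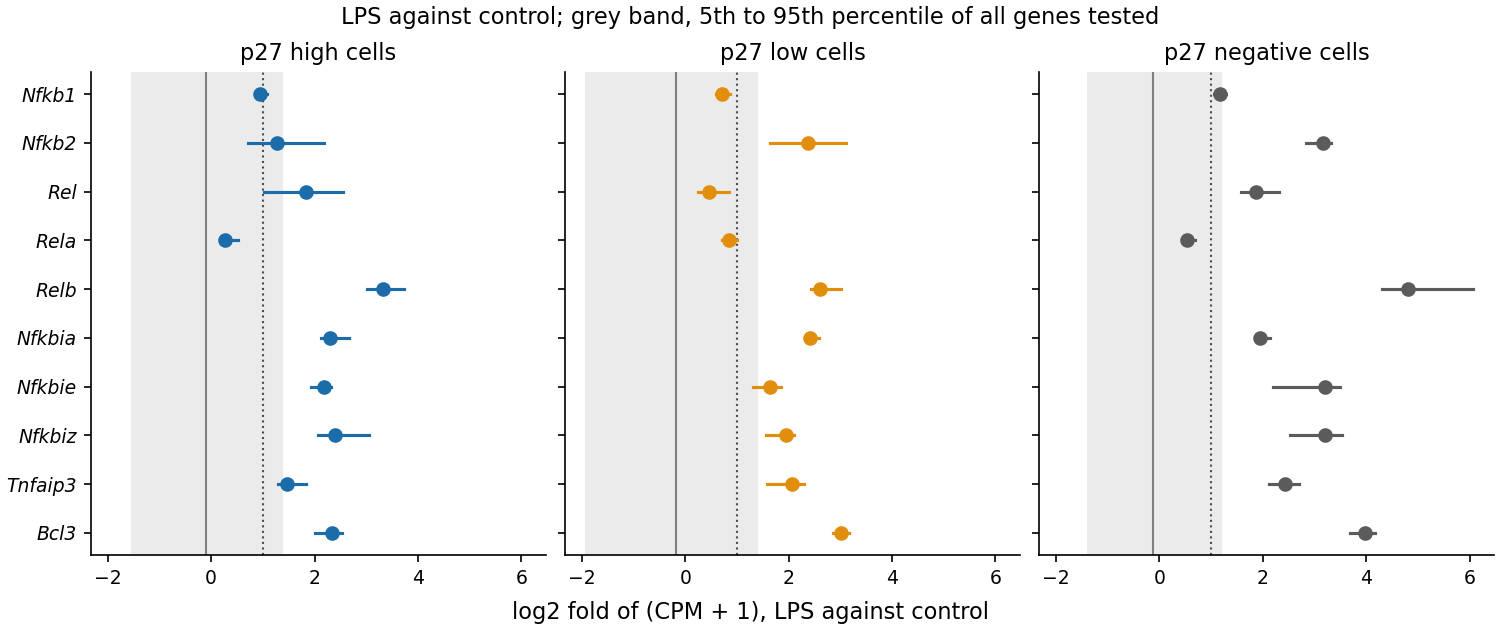
Log2 fold of (CPM + 1), LPS against control, for each member in each p27 class; points are the values given in the text, lines span 9 alternative settings, the grey band holds the middle 90% of the 11080 tested genes, the grey line is their median and the dotted line marks 2-fold. Relb and Bcl3 lie outside the band in all panels, and Rela inside it in all panels.

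The share of cells that carried each gene was compared at equal depth, after every cell had been thinned to 50000 reads. All 10 members had a larger share of cells with a read under LPS than in control in each p27 class, and did so at 200000 reads per cell, without thinning, from 5 reads on and from 50 CPM on. How many of all tested genes did the same was not counted. The counts without thinning also carry the greater depth of the LPS cells. Bcl3 went from 15.5, 16.1 and 11.6% of control to 45.2, 63.3 and 67.4% of LPS cells at equal depth, and its exact 95% binomial intervals did not overlap in any class. Relb went from 10.7, 12.9 and 4.21% to 43, 56.7 and 55.4%, again with intervals apart in each class. Nfkbia, near saturation, went from 76.2, 78.5 and 80% to 91.4, 93.3 and 91.3%, and its intervals overlapped in each class. Unthinned, Relb was read in 17.9, 16.1 and 12.6% of control and 68.8, 82.2 and 78.3% of LPS cells.

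Many LPS cells held a gene at only a few reads. Relb had 1 to 4 reads in 35.5, 32.2 and 29.3% of LPS cells, against 9.52, 6.45 and 9.47% of control cells. For Nfkb1 the order was the reverse, 33.3, 25.8 and 20% of control and 22.6, 10 and 12% of LPS cells. A level of 50 CPM, chosen after the cells' values had been seen, was therefore used as well, and it lies above the worth of 4 reads in the median cell of every group.

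At 50 CPM or more Relb was found in 7.14, 7.53 and 2.11% of control and 31.2, 45.6 and 48.9% of LPS cells, Bcl3 in 13.1, 14 and 8.42% and 35.5, 55.6 and 59.8%. Nfkb2 went from 17.9, 11.8 and 7.37% to 28, 32.2 and 50% and Nfkbiz from 13.1, 11.8 and 5.26% to 38.7, 31.1 and 23.9%. For Relb, Nfkb2, Nfkbiz and Bcl3 this share differed by a larger factor, in each class, than the median level of the cells at 50 CPM or more. The reverse held for Nfkbie in p27 high cells (share 15.5 to 25.8%, median 164 to 288 CPM). It also held for Nfkb1 in p27 negative cells (61.1 to 76.1%, 284 to 400 CPM) and for Nfkbia in each class. By a narrow margin it held for Nfkb1 in p27 high cells (39.3 to 66.7%, 264.5 to 452 CPM). The same was true of Rela in p27 negative cells (58.9 to 72.8%, 229 to 286 CPM). Because that median covers only cells past the cut, the comparison cannot tell more expressing cells from a general rise in level. For Relb that median was 270.2, 239 and 200.3 CPM in the controls, against 328, 289 and 365 CPM under LPS, and for Nfkb2 185, 171 and 132 CPM and 232, 175 and 218 CPM. Nfkbia had little room for a larger share: at 50 CPM it was 64.3, 64.5 and 73.7% in control and 75.3, 87.8 and 87% in LPS cells, and the median of those cells was 315, 305 and 264 CPM and 572, 1236 and 632 CPM.

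**Figure D4:**
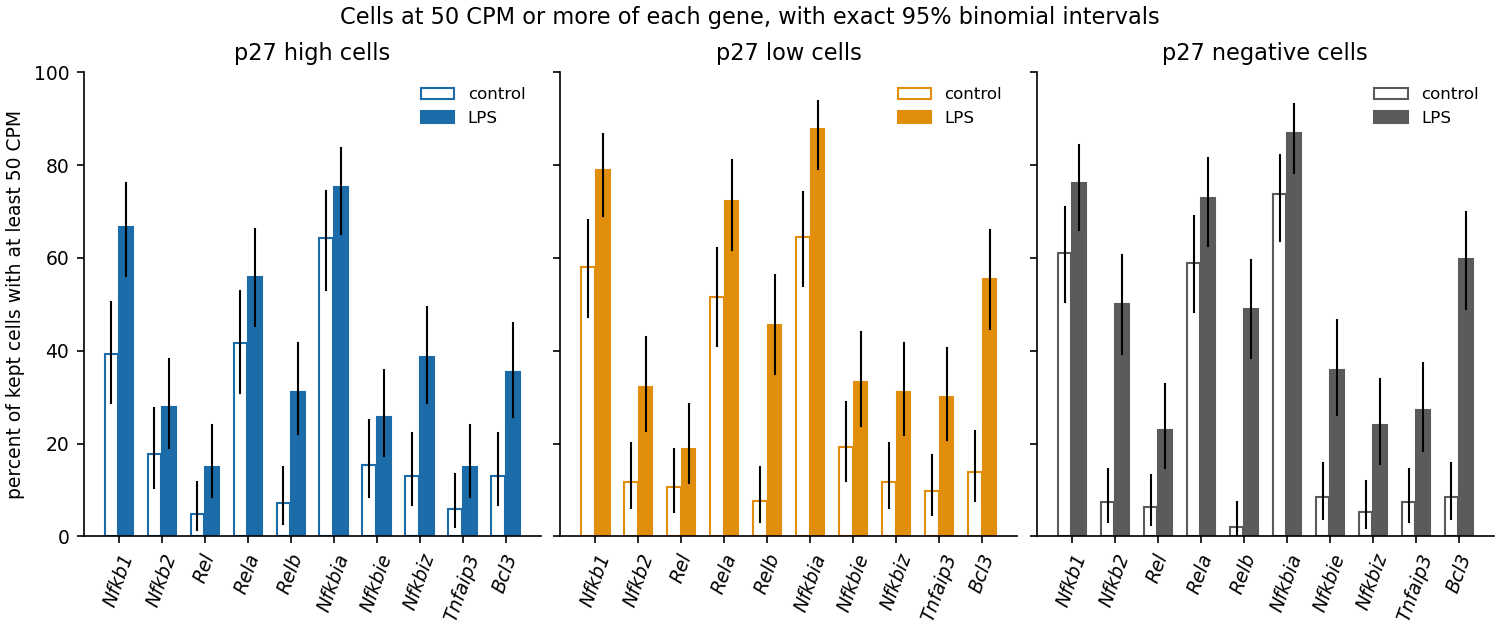
Percent of kept cells with at least 50 CPM of each gene in control (open bars) and LPS (filled bars) cells of each p27 class, with exact 95% binomial intervals as lines. Each filled bar is taller than the open bar beside it; the Relb bars reach 2.11% and 48.9% in p27 negative cells.

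Counted per cell at equal depth, a median control cell carried a read of 3 of the 10 members in each class, and a median LPS cell 4, 6 and 5.5. At least 5 members at 50 CPM or more were found in 4.76, 8.60 and 4.21% of the control cells (exact 95% binomial intervals 1.31 to 11.7%, 3.79 to 16.2% and 1.16 to 10.4%). In the LPS classes the shares were 32.3, 51.1 and 54.3% (22.9 to 42.7%, 40.3 to 61.8% and 43.6 to 64.8%). The p27 high class was the lowest of the LPS classes on this count, with an interval that overlapped that of p27 low cells and lay below that of p27 negative cells. Summed over the 10 members, the median cell held 663, 795 and 663 CPM in the controls, against 1238, 2535 and 2242 CPM in LPS groups. The top cell of each group was at 3981, 5231 and 4039 CPM and 13371, 12836 and 14548 CPM. Nfkbia made up 30.8, 32.7 and 44.5% of the members' reads in control and 47.3, 49.8 and 45.4% in LPS cells.

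Correlations between members from cell to cell were higher over LPS than over control cells. Over the 275 LPS cells, centred within each group and thinned to equal depth, Pearson's r of the 45 pairs of members ranged from 0.02 to 0.54 with a median of 0.26. Over the 272 control cells the range was -0.16 to 0.18 and the median 0.06. These are descriptions over cells of the same groups, which share counting noise, and the control values also rest on far more zeros. The closest pairs in LPS cells were Relb with Bcl3 (0.54), Relb with Nfkb2 (0.54) and Relb with Nfkbia (0.52). The loosest was Rel with Rela (0.02). Relb with Bcl3 was also the closest pair in control cells, at 0.18.

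Levels of different genes were compared only per length, as CPM per kilobase of annotated exon. Nfkbia headed the order in all 6 groups, with 156, 186 and 207 CPM per kilobase in control and 776, 991 and 803 in LPS cells. Rela followed in the 3 control groups (72.5, 51.2 and 54.5 CPM per kilobase) and Nfkb1 was the third (14.8, 21.6 and 14.3). Under LPS, Bcl3 stood at 67, 102 and 102 CPM per kilobase and Rela at 87.7, 91.8 and 79.7, so that Bcl3 was above Rela in p27 low and negative cells and below it in p27 high cells. Relb, at 4.13, 7.01 and 2.12 CPM per kilobase in control, was at 43.7, 43.8 and 66.1 under LPS, above Nfkb1 (28.8, 35.2 and 32.1) in each class. In LPS p27 high cells Relb and Nfkbie, at 43.7 and 43.6 CPM per kilobase, could not be told apart within their counting intervals. Rel and Tnfaip3 held the lowest places under LPS, Rel at 3.99, 6.0 and 5.86 and Tnfaip3 at 7.46, 13 and 9.49 CPM per kilobase.

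The p27 classes were then compared within each treatment by the same fold threshold. In control cells the p27 negative class had the lowest level of 6 members, namely Nfkb2, Relb, Nfkbie, Nfkbiz, Tnfaip3 and Bcl3. Nfkb1 was as low there as in p27 high cells within the counting intervals. At least 2-fold higher in p27 high than in p27 negative cells were 4 members, Nfkbiz (log2 fold 2.32), Nfkbie (1.32), Nfkb2 (1.15) and Bcl3 (1.05), and none was 2-fold lower. The background was 12.5% of genes higher and 8.47% lower. Only Nfkbiz held its call in all 9 alternative settings: Nfkbie fell to 0.50 with cells weighted equally, Nfkb2 to 0.38 and Bcl3 to 0.81 in cells with at least 200000 reads. Relb, at 0.88, passed in 2 settings, at 1.86 without the top cells and 1.59 with cells weighted equally.

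Relative to p27 negative cells, 4 members were at least 2-fold higher in control p27 low cells, Nfkbie (1.97), Nfkbiz (1.94), Relb (1.61) and Rel (1.43), against 10.1% of all genes higher and 8.33% lower, and none was lower. These 4 stayed past 2-fold in all 9 settings. Others joined them in some: Tnfaip3, at 0.8, reached 1.43 with cells weighted equally, and Bcl3, at 0.97, passed in 2 settings with at most 1.01. Both comparisons share the p27 negative cells, in which 1 cell carried most of the Relb reads. Between control p27 high and p27 low cells only Rel passed, at -1.93, lower in p27 high cells. There, 9.14% of all genes were higher and 7.47% lower. Without the top cells Relb passed as well, at -1.04. One of 10 members is close to the share of all genes.

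Fewer members passed between the LPS classes, and whether this differs from control was not tested. Nfkbiz alone was 2-fold higher in p27 high than in p27 negative cells (1.5), beside 11.8% of genes higher and 7.32% lower. A count of 1 in 10 members is close to the share of all genes. No member passed between LPS p27 high and low cells (12% of genes higher, 6.25% lower) or between LPS p27 low and negative cells (7.45% and 9.93%). With so few members these counts are not far from the shares of all genes either. The Nfkbiz fold between p27 high and negative cells ranged from 1.40 to 1.58 over the 9 settings under LPS and from 1.71 to 2.53 in control. Of the LPS classes, p27 high had the lowest level of Nfkb1, Nfkb2, Rel, Nfkbia, Tnfaip3 and Bcl3. The Tnfaip3 fold between p27 high and negative cells turned from -0.34 to 0.04 without the top cells. For Relb the LPS p27 high and low levels could not be told apart within the counting intervals. Equal weighting of cells brought Rel past 2-fold between LPS p27 high and low cells, at -1.25 instead of -0.57. Nfkbia differed little between classes, with log2 folds of -0.41 (control) and -0.05 (LPS) between p27 high and negative cells.

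**Figure D5:**
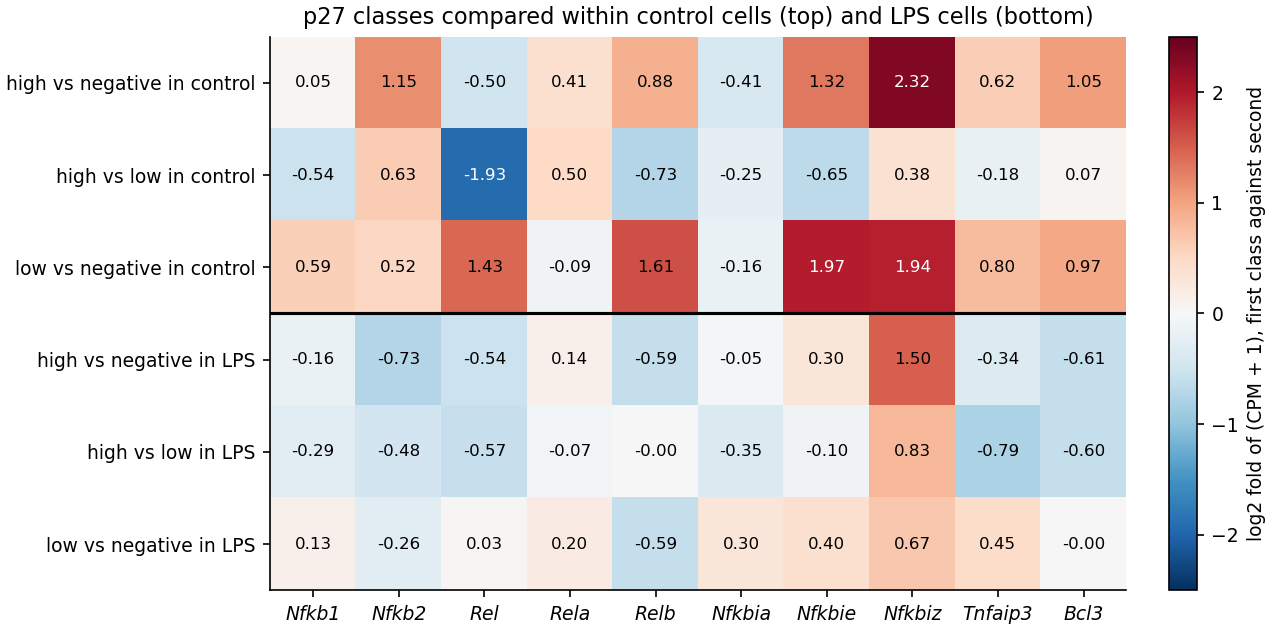
Log2 fold of (CPM + 1) between p27 classes for each member, printed in each field and coloured from blue (lower in the first class) to red (higher), in control cells above the line and LPS cells below it. Nfkbiz is red in all 6 comparisons, at 2.32 in control and 1.5 in LPS cells between the high and negative classes.

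The LPS fold itself was set side by side across classes, without a test. It was larger in p27 negative than in p27 high cells for 9 of the 10 members, Nfkbia being the exception and Rel differing by -0.04 only. The difference of log2 folds, p27 high minus p27 negative, was at least 1 in size for Nfkb2 (-1.89), Bcl3 (-1.65), Relb (-1.48) and Nfkbie (-1.02). Over all tested genes 22.3% had a difference of that size in either direction, and the median was 0.04. The control level enters each fold, and for these 6 members it was lowest in the p27 negative class: Nfkb2, Relb, Nfkbie, Nfkbiz, Tnfaip3 and Bcl3. Between p27 high and low cells 2 members differed by 1 or more, Rel (1.36) and Nfkb2 (-1.11), against 26.2% of genes. Between p27 low and negative cells 4 did, Relb (-2.21), Nfkbie (-1.57), Rel (-1.40) and Nfkbiz (-1.27), against 23%. Only 3 of these 10 differences kept a size of at least 1 in all 9 alternative settings, those of Nfkb2 and Bcl3 between p27 high and negative cells and that of Relb between p27 low and negative cells. With cells weighted equally, Nfkbie came to -0.26 (high minus negative) and Rel to 0.19 (high minus low). The sign for Rel between p27 high and negative cells turned in 2 settings, and that for Nfkbia in 1.

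The other genes of the pathway were counted against the same backgrounds. Of the 3 remaining IκB family genes, Nfkbib, the gene of IκBβ, had LPS log2 folds of 1.08, 0.15 and 0.73, Nfkbid 0.51, 0.25 and 0.47 and Nfkbil1 -0.64, -1.01 and -0.91 in the 3 classes. Of the 13 genes of IκB kinase and the kinases and adaptors around it, 3, 6 and 3 were 2-fold higher and 1, 2 and 0 2-fold lower, with medians of -0.11, 0.36 and 0.20. Ikbke, the gene of an inducible IκB kinase relative, was among them, at 43.2, 42.7 and 50.3 CPM in the control and 213, 186 and 112 CPM in the LPS classes, and so was Map3k8, at 20.3, 12.8 and 19.3 CPM and 64.7, 65.8 and 58.8 CPM. Of 21 measured receptor and adaptor genes 4, 4 and 3 were higher and 4, 1 and 2 lower, with medians of 0.06, 0.36 and 0.28. Of these 21, 2 had a control mean under 5 CPM, Cd40 and Il1r1, and passed the filter on the mean level only through the LPS groups. Both were 2-fold higher in each class, so that the counts of higher genes are in part fixed by the filter. Cd40, a TNF receptor family member that feeds the non-canonical branch, had no read in the control groups and 26.7, 19 and 6.18 CPM under LPS, at least 193-fold, 193-fold and 85.7-fold higher against a floor of 3 reads over the group. It was read in only 21, 10 and 11 LPS cells, and a single cell held 47, 32 and 59.4% of its reads.

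The receptor of LPS was thinly covered. Tlr4 was at 12.2, 26.5 and 11.5 CPM in the control and 32.7, 2.45 and 10.8 CPM in the LPS classes, its partner Ly96 at 26.5, 8.12 and 5.77 CPM and 6.82, 9.83 and 1.31 CPM, and Cd14 at no more than 2.02 CPM in any group. Single cells held up to 76.5% of the Tlr4 reads of a group.

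Of 17 measured genes listed as negative regulators outside the members, 3, 4 and 5 were 2-fold higher and 0, 1 and 0 lower, with medians of 0.01, 0.00 and -0.01. Traf1 was at 13.6, 26.1 and 9.86 CPM in the control and 236, 227 and 146 CPM in the LPS classes, and Tnip3, the gene of a partner of A20, at 64.7, 55.9 and 21.2 CPM and 336, 377 and 134 CPM. Among 9 measured genes of ubiquitin ligases and their partner enzymes 2, 2 and 1 were higher and none lower, with medians of 0.12, 0.06 and -0.24. Birc3, the gene of cIAP2, had log2 folds of 1.18, 2.09 and 1.86.

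Of 30 measured target genes, a list that also holds Birc3, Traf1 and Junb, 21, 22 and 23 were 2-fold higher and none was 2-fold lower, with medians of 1.55, 1.96 and 2.06. Of these 30, 10 had a control mean under 5 CPM and so passed the filter on low levels only through the LPS groups, and 11 of the 41 listed genes did not pass it, so that the count and medians are in part fixed by the filter. With genes that had no read in one group set at their bound, the median in p27 negative cells was 2.36, and the other medians did not move. Cxcl10, a chemokine gene that interferon signalling also drives, was at 1.52, 3.35 and 2.77 CPM in the control and 5745, 7265 and 7749.9 CPM in the LPS classes. Il6 and Cd83 had no read in any control group and were at 222, 65.7 and 29.1 CPM and 98.4, 108 and 76.3 CPM under LPS. For Il6 the fold was at least 1609, 666 and 403 in the 3 classes. In p27 high cells the Il6 level was the highest of the 3 LPS classes, as was that of Nfkbiz, and a link between them was not tested. Il6 was read in 37, 37 and 39 LPS cells, and a single cell held 26.1, 26.7 and 27.6% of its reads. For Nfkbiz a single cell held 19.2% of the LPS p27 high reads.

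Genes whose pattern was most like that of the members were listed by 2 measures, as a description. Over the 547 kept cells, thinned to equal depth and centred within each group, the 5 genes with the highest Pearson's r to Nfkbia were Cxcl10 (0.46), Parp14 (0.39), Ifit1 (0.38), Isg15 (0.37) and Relb (0.37), among 7563 genes read in at least 20% of cells. These points share groups and counting noise. Relb, a member, was thus the fifth closest of all those genes. Over the 6 group levels, the 5 genes outside the members with the highest r to the members' mean log2(CPM + 1) were Zc3hav1 (0.998), Eif2ak2 (0.996), Syvn1 (0.993), Rnf213 (0.992) and BC023105 (0.992), among 7962 genes with a mean of at least 20 CPM. These 6 points, 3 from each treatment, share the treatment contrast, and the measure does not separate it from likeness within a treatment.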

How the data were processed

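RNA of single marrow cells was amplified by the Smart-seq2 type protocol that the labels cite and Nextera XT libraries were sequenced. Deposited by the authors were 2 tables of raw counts of reads per gene, 1 for control and 1 for LPS cells, with no normalization. The submitters' processing notes name GSNAP, HTSeq 0.6.0 and the build mm10, without their settings. The annotation release and the strand setting of the counting are not stated there. Of all reads, 34.1% fell in genes, 2.06% in 92 spike-in entries and 63.8% in 5 summary entries that name no gene; the last 2 kinds stayed out of totals and folds.

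Symbols, coordinates and exon lengths came from GENCODE M21 by gene ID, which named 45143 of 46078 genes. Cells with at least 50000 gene reads were kept; no limit on mitochondrial reads, clustering or doublet removal was applied. Counts were summed over the cells of a group and scaled to CPM; log2 folds had 1 CPM added, and 11080 genes with a mean of at least 5 CPM over the 6 groups were compared. Intervals are exact, at 95%. TMM factors, an alternative, came from edgeR 4.0.16 (R 4.3.3). Other work used Python 3.11.15 with numpy 2.4.6, pandas 2.3.3 and scipy 1.17.1, and thinning used a fixed random seed. The fold procedure was tested on simulated data. The other alternatives were equal weighting of cells, totals without mitochondrial genes, all cells, cells with 200000 reads, cells with at most 10% mitochondrial reads, leaving out top cells, and 0.1 or 5 CPM added.

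The members and the 14 pathway and marker lists were chosen with earlier results of these data known. The result of 1 marker list is not reported here. Of each pathway list, the up to 4 genes with the largest absolute fold in p27 high cells and up to 2 in p27 negative cells could be named, with Tlr4, Cd14 and Ly96, and of each marker list the gene with the highest level; 5 genes by each likeness measure were named.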

Additional observations from a re-analysis of the deposited data

Results flagged for a closer look

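Tlr4, the gene of the Toll-like receptor for LPS, had opposite LPS effects in 2 classes: its log2 fold was 1.35 in p27 high cells and -3.00 in p27 low cells, a difference of 4.35. It was read in 14 control and 19 LPS cells of the p27 high class, and in 14 and 9 cells of the p27 low class, where a single LPS cell held 76.5% of the reads. In the p27 high class a single control cell held 49.8% of the control reads. Both of these cells lie in the group with the lower Tlr4 level of their class. In the groups with the higher level the top cell held 18.2% (LPS p27 high) and 22.6% (control p27 low) of the reads. The folds without these cells were not computed. Fosl2, an immediate early gene, had log2 folds of 1.39 and -2.96 in the same classes, a difference of 4.35. It is named because its folds were opposite, after its values had been seen. Neither difference was tested, since each group is 1 sample.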

How the results depend on the processing

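The counts of members past 2-fold were recomputed under 9 alternatives in each of 9 comparisons, 81 values, of which 77 stayed within 1.5 times the count reported. Between control p27 high and negative cells the count was 2 instead of 4 in cells with at least 200000 reads and with 5 CPM added. Between control p27 high and low cells it was 2 instead of 1 when each gene's top cell was dropped, and between LPS p27 high and low cells 1 instead of 0 with the mean of the cells' own CPM. In the LPS comparisons the count stayed at 7 in p27 low and 9 in p27 negative cells under all 9, and was 8 in p27 high cells except with TMM factors, where it was 9. TMM moved the median of all tested genes from -0.10, -0.17 and -0.13 to 0.03, -0.01 and -0.01 in the 3 classes, and all 10 members stayed above 0. No 2-fold call changed sign. Of 810 alternative fold values 236 lay beyond the counting interval of the main value. A filter at 1 or 20 CPM in place of 5 moved 7 of 36 background shares by over 1.5 times. No paired analysis was possible because the labels give no meaning to the cell numbers that groups share and each group is 1 sample. A single cell held up to 51.3% of the Rel, 50.4% of the Tnfaip3 and 72.5% of the Relb reads of a control group. For Nfkb2 and Nfkbiz the largest such share in control was 35.8% and 33.7%. These control levels rest in large part on single cells, and the part of depth in this was not tested.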

Other observations

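Immediate early genes, which respond to stimulation within the first transcriptional wave, were examined as a list of their own. Of 17 measured genes of the list, 7, 4 and 4 were at least 2-fold higher under LPS in the 3 classes (p27 high, then low, then negative) and 1, 2 and 0 lower, with medians of 0.72, 0.45 and 0.47. Of these 17, 1 had a control mean under 5 CPM and so passed the filter on the mean level only through the LPS groups. Within LPS cells, 11 of the 17 were 2-fold higher in p27 high than in p27 negative cells and 0 lower, beside 11.8% and 7.32% of all genes tested. In control cells 8 were higher and 1 lower, beside 12.5% and 8.47%. Egr1, a zinc finger factor, was at 83.5, 58.2 and 67 CPM in the control classes and 467, 156 and 111 CPM in the LPS classes. Junb, an AP-1 component that is also on the NF-κB target list, was at 107, 101 and 38.9 CPM and 249, 206 and 202 CPM. Nr4a1, an orphan nuclear receptor gene, was at 27.4, 25.7 and 2.89 CPM and 89.1, 18.6 and 12.4 CPM, with 70.8% of its control p27 high reads in a single cell.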
